A study of Mus musculus with 4 samples.

Results

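The lysyl oxidases and lysyl hydroxylases act at different steps towards collagen crosslinks. For them 8 mouse genes were considered: Lox, Loxl1, Loxl2, Loxl3, Loxl4, Plod1, Plod2 and Plod3. A gene was measured through probe sets to which the platform annotation gives exactly 1 gene symbol, and the probe set with the highest mean was taken. By this rule 6 of the 8 genes were measured, among 22180 genes in all, and each of the 6 has 1 such probe set. Both probe sets of Loxl2 also carry the symbol Gm21451, and the probe set of Plod3 also carries the microRNA gene Mir702, so these 2 members are not analysed here.

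The arrays came from untreated wild-type C57Bl/6 mice, an inbred laboratory strain, aged 4 months, with 2 arrays from males and 2 from females. Achilles and plantaris tendons of an animal were combined, and their RNA was measured on Mouse Gene ST 2.1 arrays. No allele or agent distinguishes the groups, which differ by sex. The labels name tenocytes as the cell type, but whole tendon was homogenised, so a difference in cell numbers and one in RNA per cell cannot be told apart. Whether the samples are separate animals is not stated in the labels. The p-values therefore describe the spread among these samples alone, and this spread may be technical.

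Tendon gets its tensile strength from covalent bonds between collagen molecules. Inside the cell, lysyl hydroxylases (the Plod genes) hydroxylate lysine residues of the new collagen chains, which sets the chemistry of the later bonds and makes sites for sugar attachment. Outside the cell, the lysyl oxidases, which need copper, convert lysine and hydroxylysine side chains of collagen, and lysines of elastin, into reactive aldehydes that then condense into crosslinks. Lox is the founding member of the oxidase family, and Loxl1 is known for its role in elastic fibres.

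Values are log2 RMA values, a background-corrected and normalised summary of the probes of a probe set. The medians of the arrays over all rows were 2.303 and 2.292 in males 1 and 2 and 2.266 and 2.276 in females 1 and 2, and signals near these medians were not told from background. Of the genes that mark tendon fibroblasts, 8 of 8 had a mean above 2.46, the median of all probe set means. The matrix proteoglycan gene Dcn ranged from 10.12 to 10.60 over the arrays, whereas the transcription factor gene Mkx ranged from 2.26 to 3.09. Skeletal muscle genes were also bright, with a list median of 10.52, 10.37, 10.27 and 9.11 in male 1, male 2, female 1 and female 2. Female 2 stood apart: 7 of 8 macrophage markers had their highest value there and 7 of 8 muscle genes their lowest. Among the muscle genes, Myh4 (7.35) and Actn3 (6.68) were far below the other arrays there, while Tnnt3 was at 10.66 against 10.78 to 10.92. Over all probe sets, 24.8% had their highest and 25.9% their lowest value in that array.

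Across the 4 arrays Plod2, Lox and Loxl3 gave the brighter readings, while Loxl1 and Loxl4 lay close to the array medians. Lox and Plod2 varied widely from array to array, and Plod1 and Loxl1 hardly varied. No member passed the threshold between the sexes. The widest sex difference was that of Lox, which was higher in females by 1.65 on the log2 scale and rested largely on 1 female array.

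**Figure D1:**
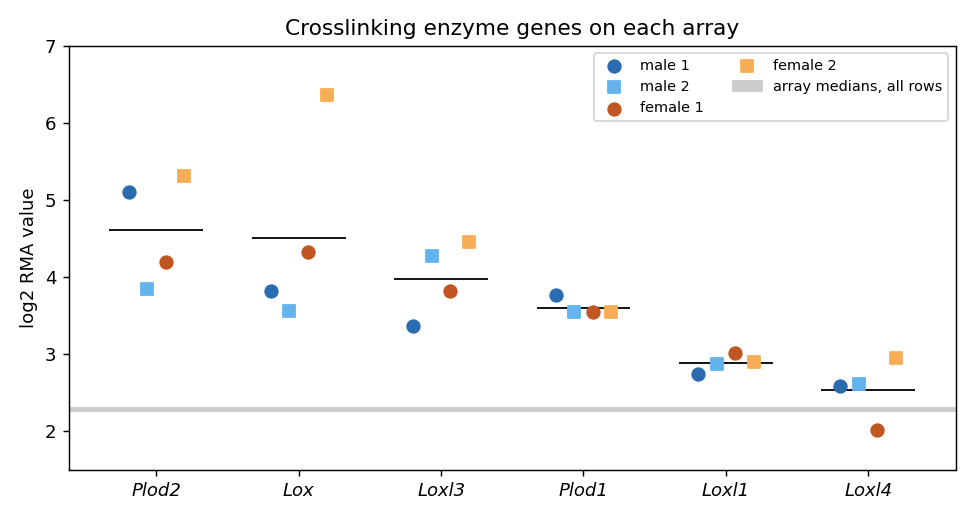
Log2 RMA values (vertical axis) of the 6 measured genes on each of the 4 arrays, in order of their means. Points are arrays, black lines are means over the 4 arrays, and the grey band spans the array medians over all rows. Lox is at 6.36 in female 2 and between 3.56 and 4.32 elsewhere, and Loxl4 in female 1 lies below the band.

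Among the hydroxylases, Plod1 encodes the enzyme that mainly modifies lysines in the triple helix. Plod1 (probe set 17432835) was at 3.77 in male 1, 3.54 in male 2 and 3.55 in both females. The females gave the same value to all deposited decimals, and 310 of the 41345 rows of the table have such a tie between at least 2 arrays. Males averaged 3.66 ± 0.17 (SD, n = 2) and females 3.55 ± 0.00 (SD, n = 2), and the sexes overlapped. The difference was -0.10 (SE 0.16, 95% interval -0.53 to 0.33; limma adjusted p = 0.979). Over all 4 arrays the SD of Plod1 was 0.11, which is larger than or equal to that of 21.5% of all probe sets.

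Plod2 encodes the enzyme that hydroxylates lysines in the telopeptides, the non-helical chain ends where crosslinks form. Plod2 (probe set 17520364) was at 5.10 in male 1, 3.84 in male 2, 4.20 in female 1 and 5.31 in female 2. Male 1 and female 2 were high and male 2 and female 1 low, so each sex held both a high and a low array. Males averaged 4.47 ± 0.89 (SD, n = 2) and females 4.75 ± 0.79 (SD, n = 2). The sex difference of 0.29 (SE 0.58, 95% interval -1.27 to 1.85) did not pass the test (limma adjusted p = 0.983). It was far smaller than the gaps within a sex, 1.26 between the males and 1.11 between the females. Of all probe sets, 97.6% had a gap no wider than this between the males and 96.6% between the females. The difference had the opposite sign without male 2 (-0.34) and without female 2 (-0.27).

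Among the oxidases, Lox (probe set 17354367) was at 3.82 in male 1, 3.56 in male 2, 4.32 in female 1 and 6.36 in female 2. Both females lay above both males, with female 1 only 0.50 above male 1 and female 2 far above every other array. Males averaged 3.69 ± 0.19 (SD, n = 2) and females 5.34 ± 1.44 (SD, n = 2). The difference of 1.65 (SE 0.71, 95% interval -0.24 to 3.54) corresponds to 3.14-fold, with an interval of 0.844 to 11.7-fold. It did not pass the test (limma unadjusted p = 0.074, adjusted p = 0.969).

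The gap of 2.04 between the 2 females was wider than the difference between the sexes. A gap of this size or less was seen between the females in 99.7% of all probe sets, where the median gap was 0.21. Without female 2 the Lox difference was 0.63, and without female 1 it was 2.67. The SD of Lox over the 4 arrays, 1.27, was reached or exceeded by 109 of 23521 probe sets, Lox included. Within its own array, Lox stood at percentile 79.4 of all probe sets in male 1, 75.2 in male 2 and 82.9 in female 1. In female 2 it stood at percentile 95.5.

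Loxl1 (probe set 17527694) was at 2.74 in male 1, 2.87 in male 2, 3.01 in female 1 and 2.90 in female 2. Both females were above both males, but by 0.03 at the nearest pair. Males averaged 2.81 ± 0.10 (SD, n = 2) and females 2.95 ± 0.08 (SD, n = 2). The difference of 0.15 (SE 0.15, 95% interval -0.26 to 0.55) did not pass the test (limma adjusted p = 0.971). The upper end of the interval is a 1.47-fold difference. The SD of Loxl1 over the arrays, 0.11, was the lowest of the 6 members, at percentile 20.2 of all probe sets. That of Plod1 is the same after rounding, at percentile 21.5.

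Loxl3 and Loxl4, with Loxl2, form the branch of the family that carries scavenger receptor domains. Loxl3 (probe set 17459870) was at 3.36 in male 1, 4.27 in male 2, 3.82 in female 1 and 4.46 in female 2. The sexes overlapped, with male 2 above female 1. Males averaged 3.82 ± 0.64 (SD, n = 2) and females 4.14 ± 0.45 (SD, n = 2). The difference was 0.32 (SE 0.40, 95% interval -0.75 to 1.40; limma adjusted p = 0.972). The difference was -0.13 without male 1, 0.78 without male 2, 0.65 without female 1 and 0 without female 2.

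Loxl4 (probe set 17364851) was at 2.59 in male 1, 2.61 in male 2, 2.01 in female 1 and 2.95 in female 2. The males lay close together, and the females lay on either side of them. Female 1 was below the median of its array, at percentile 33.2, so signal there was not told from background. Males averaged 2.60 ± 0.02 (SD, n = 2) and females 2.48 ± 0.66 (SD, n = 2). The difference was -0.12 (SE 0.34, 95% interval -1.04 to 0.81; limma adjusted p = 0.990). Without female 1 the difference was 0.35.

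**Figure D2:**
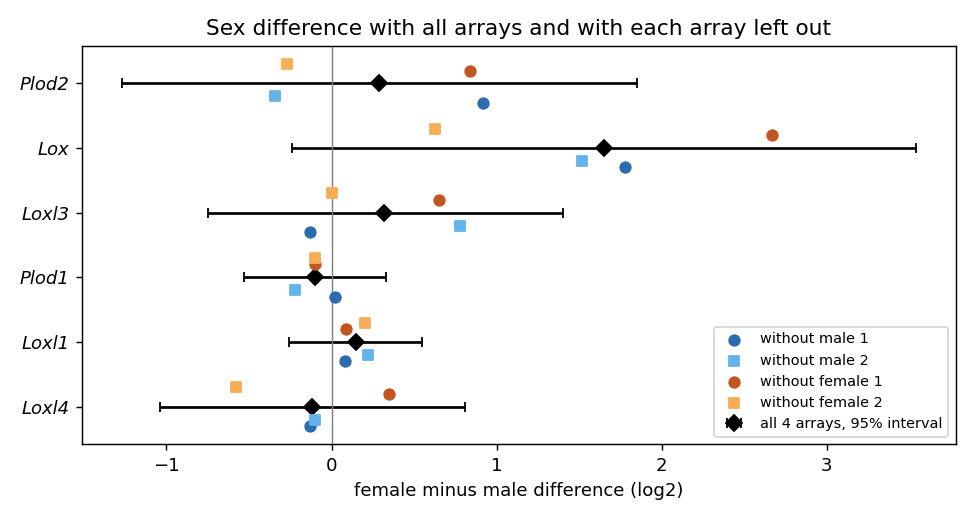
Female minus male difference on the log2 scale (horizontal axis) for each measured gene. Diamonds with bars are the estimate from all 4 arrays with its 95% interval, and the smaller points are the estimates with 1 array left out. All 6 intervals include 0, and the Lox estimate runs from 0.63 without female 2 to 2.67 without female 1.

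Counted together, 0 of 6 members were called between the sexes by limma at an adjusted p of 0.05, as were 0 of 23521 probe sets (0%). At an unadjusted p of 0.05, 0 of 6 members passed, beside 1056 of all probe sets (4.49%). The sexes did not overlap for 2 of 6 members, Lox and Loxl1, beside 33.3% of all probe sets, so this count is near the background. In both, the females were above the males, which held for 15.8% of all probe sets, while in 17.5% both females lay below both males. The difference was above 0 in 4 of 6 members and in 48.8% of all probe sets. The median difference of the members was 0.22, beside -0.0062 over all probe sets. It ranged from -0.05 without female 2 to 0.50 without female 1. An exact two-sided permutation test of 2 against 2 arrays cannot go below p = 0.333, which is why limma was used.

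The order of the readings was compared as a description, since signals of different probe sets depend on probe sequence as well as on transcript number. By mean log2 RMA value over the 4 arrays, the order was Plod2 (4.61 ± 0.71, SD, n = 4), Lox (4.51 ± 1.27), Loxl3 (3.98 ± 0.49), Plod1 (3.60 ± 0.11), Loxl1 (2.88 ± 0.11) and Loxl4 (2.54 ± 0.39). Only the step from Plod1 to Loxl1, 0.72, was larger than the SD of both its neighbours. The steps from Plod2 to Lox (0.10), Lox to Loxl3 (0.53), Loxl3 to Plod1 (0.38) and Loxl1 to Loxl4 (0.34) were within the larger SD of their pair.

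The top of the order changed between arrays. Plod2 was the brightest member in male 1, Loxl3 in male 2, and Lox in both females. The lower end was steadier, since Loxl4 was the dimmest member in 3 arrays and Loxl1 in female 2. Against all probe sets the means lay at percentile 86.4 for Plod2, 85.6 for Lox, 80.4 for Loxl3 and 75.8 for Plod1. Those of Loxl1 and Loxl4 lay at percentiles 62.2 and 52.7. All 6 measured members therefore had a mean above the median of probe set means.

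Their spread over the arrays was uneven. The SDs of Lox, Plod2, Loxl3 and Loxl4 lay at percentiles 99.5, 96.1, 89.5 and 82.3 of all probe sets, against 20.2 and 21.5 for Loxl1 and Plod1. The median SD was 0.44 over the members and 0.20 over all probe sets. The probe sets compared were not matched to the members for level.

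**Figure D3:**
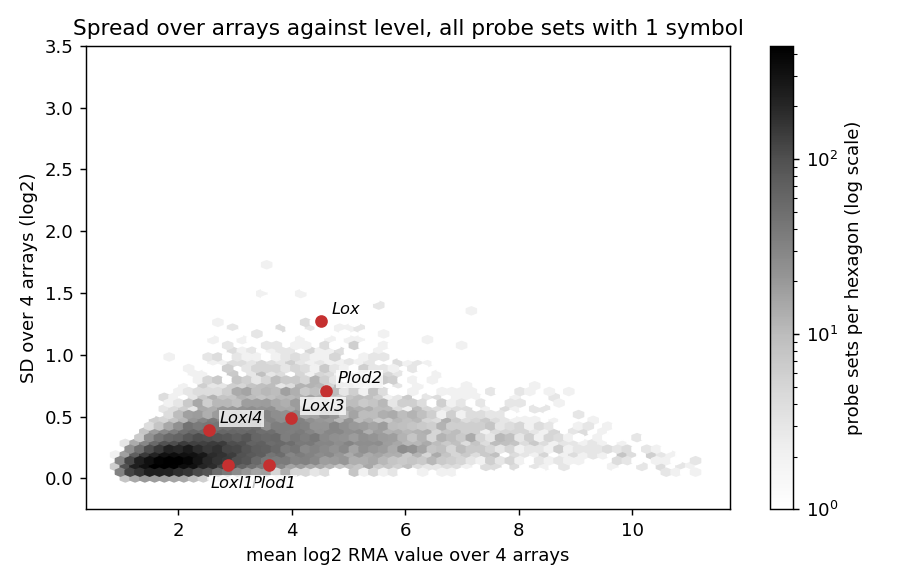
SD over the 4 arrays (vertical axis, log2) against mean log2 RMA value (horizontal axis) for 23521 probe sets, shown as hexagons shaded by the number of probe sets on a log scale, with the 6 measured genes as red points. Lox lies at the upper edge of the cloud with an SD of 1.27, and Loxl1 and Plod1 lie near its floor at 0.11.

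Female 2 was the array with the highest value for 4 of 6 members, namely Lox, Plod2, Loxl3 and Loxl4, beside 24.8% of all probe sets. Their deviations there from the 4-array mean were 1.85, 0.70, 0.48 and 0.41 on the log2 scale. Loxl1 and Plod1 deviated by 0.02 and -0.05. Macrophage markers had a median deviation of 0.79 in the same array, against -0.29 in female 1 and -0.27 and -0.25 in males 1 and 2. The female mean was higher for 8 of 8, beside 48.8% of all probe sets. In female 1, however, Adgre1 (3.38), Csf1r (3.81) and Mrc1 (5.07) lay below both males. Cd68, Cd163, C1qa and C1qb lay above both there, and Lyz2 lay between the males. The log2 of the summed linear signal of the macrophage markers was 8.51 and 8.77 in males 1 and 2 and 8.57 and 9.56 in females 1 and 2. Of these markers Cd163 was the dimmest in female 2, at 2.90.

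Of the 7 measured adipocyte markers, 6 were higher in females, beside 48.8% of all probe sets. Their summed level was 10.19 and 10.67 in males and 10.65 and 10.81 in females. That sum is carried by Fabp4, a fatty acid binding protein gene, which lay between 10.06 and 10.54. The median difference of the list was 1.07, the largest of the lists compared. At an unadjusted p of 0.05, 3 of the 7 passed, Plin4 (1.59), Cidec (1.57) and Pparg (1.43), beside 4.49% of all probe sets. At an adjusted p of 0.05 limma called 0. The males were unlike each other, with a median deviation of the list of -1.11 in male 1 and -0.07 in male 2. It was 0.13 in female 1 and 0.73 in female 2. Skeletal muscle genes were higher in females in 2 of 8, with a summed level of 13.31 and 13.26 in males and 13.27 and 12.72 in females. Endothelial markers were higher in 5 of 6 (6.94 and 7.79 in males, 7.69 and 8.01 in females), and cartilage and bone markers in 5 of 6 (10.39 and 9.86, against 9.82 and 10.89). Tendon fibroblast markers were higher in 4 of 8 (11.12 and 10.74, against 10.70 and 11.49). Keratinocyte markers were higher in 1 of 3 (4.32 and 4.29, against 4.03 and 3.99), and Krt14 lay below the array medians throughout, between 1.99 and 2.11. The part of these cell types in the Lox values was not tested.

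**Figure D4:**
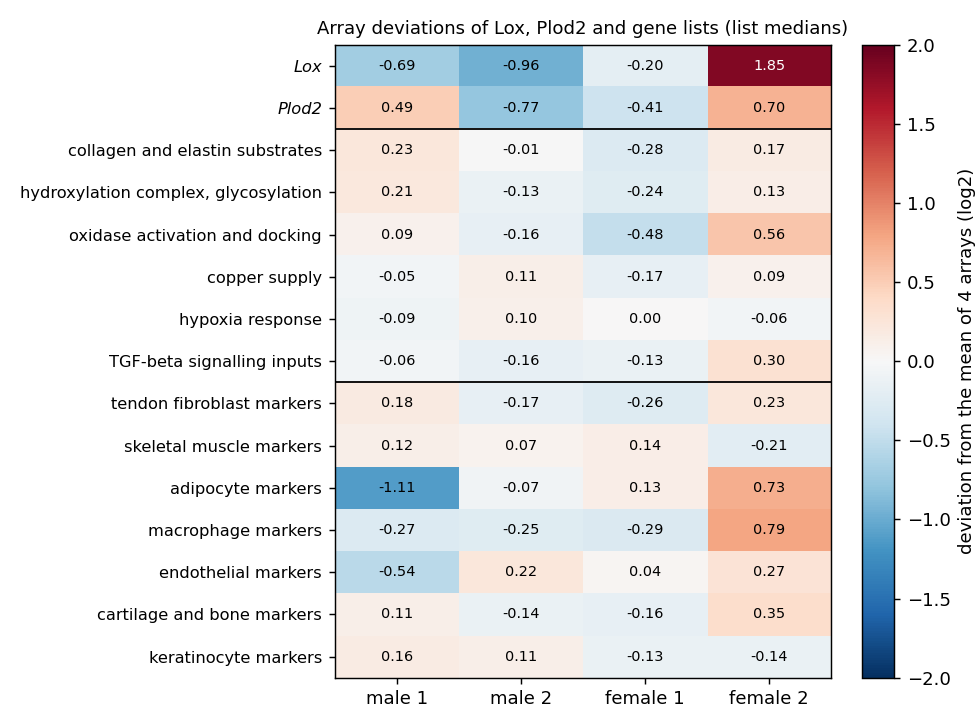
Deviation from the mean over the 4 arrays (colour and printed value, log2) of Lox, Plod2, the 6 lists of partner genes and the 7 lists of cell type markers (rows) on each array (columns), with the list median given for lists. In female 2 Lox deviates by 1.85, Plod2 by 0.70, adipocyte markers by 0.73 and macrophage markers by 0.79, while skeletal muscle genes deviate by -0.21.

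The genes whose array pattern was most like that of a member were found by the distance between values centred on each gene's own mean, over the 4 arrays and 10730 probe sets above the median level. For Lox the nearest were Ankhd1 (distance 0.30), Saa3 (0.56), Pisd-ps3 (0.58), Cd68 (0.58) and Clec4a3 (0.58). Cd68, which encodes a lysosomal protein of macrophages, was at 4.62, 4.77, 4.97 and 6.78 in male 1, male 2, female 1 and female 2. The choice by pattern fixes that these 5 genes were highest in female 2. Saa3 (2.00 and 1.73) and Clec4a3 (2.14 and 2.16) lay below the array medians in males and passed the level filter through the females. Pisd-ps3 lay below the array medians in male 2 (1.83) and female 1 (2.17) and passed the filter through female 2 (4.63).

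For Plod2, which had the next widest range over the arrays, the nearest were Sdc2 (distance 0.11), Krtdap (0.18), Clu (0.19), Fxyd2 (0.21) and Sod3 (0.24). Sdc2, which encodes a syndecan of the cell surface, was at 6.46, 5.30, 5.68 and 6.68. That these genes share the high and low arrays of Plod2 is likewise fixed by the choice. Lox and Plod2 were at a distance of 1.67 from each other. Among the members, the closest pair was Loxl1 and Plod1 (0.37), which are also the 2 that varied least.

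The substrates of the enzymes were compared next. Of 8 fibrillar collagen and elastin genes, 0 passed the threshold in either direction. Their median difference was -0.10, and 6 of the 8 had lower means in females, while 48.8% of all probe sets were higher in females. Col1a1, which encodes a chain of type I collagen, was at 6.46 and 6.33 in males and 6.04 and 6.54 in females, so the sexes overlapped. Its difference was -0.10 (SE 0.22). Those of Col11a1, a chain of a minor fibrillar collagen, and Col3a1 were -0.45 (SE 0.15) and -0.34 (SE 0.36). Col11a1 was at 2.49 and 2.68 in males and 2.12 and 2.16 in females, with the female values below the array medians. In female 2, where Lox was high, the substrates deviated by a median of 0.17. The median difference of the list was -0.35 without male 2 or female 2 and 0.12 without female 1.

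Genes of the lysyl hydroxylation complex and of hydroxylysine glycosylation act beside the Plod enzymes in the endoplasmic reticulum. Of 8 measured, 0 were called. Lower means in females were seen in 6 of the 8, while 48.8% of all probe sets were higher in females. The median difference was -0.14. It ranged from -0.32 without male 2 to 0.05 without female 1. P3h4, a scaffold partner of the Plod1 enzyme, was at 2.75 and 2.38 in males and 2.85 and 3.30 in females, a difference of 0.51 (SE 0.24). Its value in male 2 lay close to the array medians. Colgalt2, a collagen galactosyltransferase gene, differed by 0.45 (SE 0.56), with 4.15 in female 2 and between 2.64 and 3.28 elsewhere. P3h3 went the other way, at 3.34 and 3.22 in males and 2.85 and 2.84 in females. Its difference of -0.44 (SE 0.15) did not pass the threshold (limma unadjusted p = 0.0344, adjusted p = 0.969). Fkbp10, the chaperone gene of the Plod2 enzyme, is not analysed here.

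Genes that activate lysyl oxidases, dock them on the matrix or organise the fibrils around them gave 0 calls among 9 measured. Of these, 7 were higher in females, beside 48.8% of all probe sets, with a median of 0.19. The same number were highest in female 2, beside 24.8% of all probe sets. The median turned to -0.27 without female 2 and -0.11 without male 2, and was 0.67 without female 1. Bmp1, the protease that removes the Lox propeptide, was at 2.59 and 2.60 in males, 2.22 in female 1 and 3.62 in female 2. This is a difference of 0.33 (SE 0.49), and the value in female 1 lay below the median of that array. Fbln5, a fibulin that tethers oxidases to elastin, was at 3.10 and 2.86 in males and 3.65 in both females. The sexes did not overlap, and the difference of 0.67 (SE 0.16) did not pass the threshold (limma unadjusted p = 0.012, adjusted p = 0.969). Thbs1, the thrombospondin gene, differed by 0.75 (SE 0.83) and varied from 2.79 in male 2 to 5.27 in female 2.

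The oxidases take up copper in the secretory pathway, so genes of copper supply were compared, though not all of them serve the oxidases. Of 5 measured, 0 were called and 2 were higher in females, beside 48.8% of all probe sets, with a median of -0.08. The median was -0.21 without female 2, 0.05 without female 1, and 0.06 among probe sets above the median of all values. Atp7a, the pump that loads copper into secreted enzymes, was at 2.66 and 2.87 in males and 2.80 and 2.52 in females, a difference of -0.11 (SE 0.18). Ccs, a copper chaperone gene for superoxide dismutase, differed by 0.82 (SE 0.53), with 4.21 in female 2 and between 2.35 and 3.09 elsewhere. Its lowest value, in male 1, lay close to the array medians. Without female 2 the Ccs difference was 0.15, and without female 1 it was 1.48. Atp7b differed by -0.37 (SE 0.20), and its female values of 1.84 and 1.81 lay below the array medians.

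Lox and Plod2 are known targets of the hypoxia response and of TGF-beta signalling, so genes of both were compared. Of 13 measured hypoxia genes, 0 were called and the median was 0.02. Means were higher in females in 7, beside 48.8% of all probe sets, and lower in 6. Among the lower ones were Ndrg1 (-0.67, SE 0.31), Pgk1 (-0.55, SE 0.58) and Ldha (-0.42, SE 0.20). Pgk1 was at 5.97 in female 2 and between 7.21 and 7.61 elsewhere. Ldha in female 2 (2.02) lay below the array medians. Egln3, an oxygen-sensing prolyl hydroxylase gene, was at 5.78 and 5.31 in males, 6.00 in female 1 and 7.47 in female 2, a difference of 1.19 (SE 0.54). Without female 2 the difference was 0.46, and without female 1 it was 1.92. Slc2a1, a glucose transporter gene, was at 3.78 and 3.82 in males and 4.48 and 4.49 in females. Its difference of 0.69 (SE 0.14) did not pass the threshold (limma unadjusted p = 0.00622, adjusted p = 0.969), and it was 0.38 when the probe sets of the gene were averaged. The hypoxia list as a whole deviated by -0.06 in female 2.

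Of 8 measured genes of TGF-beta signalling, 0 were called and 7 were higher in females, beside 48.8% of all probe sets. Of the 7, Tgfb1 (0.01), Smad3 (0.04) and Tgfbr1 (0.08) hardly differed. The median difference of the list was 0.18. The median was -0.04 without female 2 and 0.38 without female 1. Tgfbr2, a receptor gene, was at 3.11 and 3.72 in males, 3.76 in female 1 and 5.16 in female 2, a difference of 1.05 (SE 0.53). It was 0.35 without female 2 and 1.74 without female 1. The ligand gene Tgfb2 was at 5.81 and 5.65 in males and 5.02 and 5.09 in females. Its difference of -0.67 (SE 0.15) did not pass the threshold (limma unadjusted p = 0.0088, adjusted p = 0.969). In female 2, 6 of the 8 genes had their highest value, beside 24.8% of all probe sets.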

How the data were processed

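Expression was measured in 4 tendon samples, 2 male and 2 female. Per the labels' protocols, 12.5 ng of total RNA went into cDNA amplification, and 3.75 ug of cDNA was biotinylated. Whether the 3 RNA wells of each sample were combined is not stated. The values are the log2 values deposited by the authors. They were made with RMA and oligo, per the submitters' processing notes, which give no versions. No scanner files were used, and array scan and strip position are not given in the sources used here. Values ran from 0.517 to 11.933, and the number of arrays limits the precision.

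Of 41345 rows, 23521 have exactly 1 symbol in GEO's platform annotation. Of these, 23328 matched RefSeq (GRCm38.p6) by Entrez ID, which changed 0 symbols. Ctgf was matched as Ccn2. Each was fitted with limma 3.58.1 in R 4.3.3 (lmFit, eBayes) on sex alone, with Benjamini-Hochberg adjustment over all 23521 and a threshold of 0.05. A run on simulated data checked only that mean estimates lay near the differences put in. It is no measure of the power to call a gene. Plots used Python 3.11.15 and matplotlib 3.10.9.

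The members and lists were chosen with earlier results of these data known. All members were named; from each partner list the 2 genes of largest absolute difference were named, with Col1a1, Bmp1, Fkbp10 and Atp7a in any case, and for Lox and the member of next widest range the 5 nearest genes. Other genes were named after their values were seen. The alternatives were an adjusted p of 0.1, all rows, only probe sets above the median of all values, the mean over a gene's probe sets, array weights, centring on array medians, a further quantile normalization, a robust and trended prior, a block for the replicate number, and leaving out each array.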

Additional observations from a re-analysis of the deposited data

How the results depend on the processing

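No member and no gene of the partner lists was called by limma under any alternative run, including an adjusted p of 0.1. Of 72 recomputed member differences, 67 kept their sign and 5 turned, all 5 when an array was left out. Many of the 67 could not turn. All rows, the level filter, the prior, array weights, the replicate block and the averaging of probe sets left each member's estimate unchanged. The 67 are therefore no measure of stability. Loxl3 without female 2 came to 0 after rounding and is counted among them. Loxl3 (-0.13) and Plod1 (0.02) turned without male 1, Plod2 without male 2 (-0.34) and without female 2 (-0.27), and Loxl4 without female 1 (0.35). With an array left out, Loxl3 ranged from -0.13 to 0.78, Plod1 from -0.22 to 0.02, Plod2 from -0.34 to 0.92 and Loxl4 from -0.58 to 0.35. Lox ranged from 0.63 to 2.67 with an array left out and from 1.61 to 1.68 under the other alternatives. The number of members higher in females was 3 to 5 with an array left out. Among 15 named partner genes, 7 of 179 values turned: Thbs1 without male 2 (-0.11) and without female 2 (-0.10), Col3a1 (0.16) and Col1a1 (0.14) without female 1, and Colgalt2 (-0.28), Bmp1 (-0.37) and Atp7a (0.04) without female 2. With an array left out, Thbs1 ranged from -0.11 to 1.62, Col3a1 from -0.83 to 0.16, Col1a1 from -0.35 to 0.14, Colgalt2 from -0.28 to 1.18, Bmp1 from -0.37 to 1.02 and Atp7a from -0.25 to 0.04. Ccs ranged from 0.15 to 1.48, Egln3 from 0.46 to 1.92, Tgfbr2 from 0.35 to 1.74, P3h4 from 0.29 to 0.74 and Atp7b from -0.57 to -0.17. Slc2a1 was at 0.38 with its probe sets averaged. The list medians all changed sign with an array left out: substrates ranged from -0.35 to 0.12, the hydroxylation complex from -0.32 to 0.05, activation and docking from -0.27 to 0.67, copper supply from -0.21 to 0.05, hypoxia from -0.09 to 0.24 and TGF-beta from -0.04 to 0.38. With an array left out, the spread of the remaining array of that sex is taken from the other sex. With the replicate number as a block, the median member difference was 0.22 and Lox was at 1.65 (limma adjusted p = 0.993), with 0 members called. The labels do not say that a number marks a pair. The difference between replicates 1 and 2 in males had a correlation of -0.06 with that in females across probe sets. Loxl4 was near background, which limits what its values can show.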
